A study of Homo sapiens with 18 samples.

Results

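The long arm of chromosome 19 carries, in band q13, a row of adjacent genes for KRAB zinc finger proteins, and ZNF569 lies near the right end of the stretch described here. The 10 genes followed were ZNF345, ZNF568, ZNF420, ZNF585A, ZNF585B, ZNF383, ZNF527, ZNF569, ZNF570 and ZNF540, out of 41120 gene symbols in the deposited count table. They were chosen by symbol and position, because ZNF569 differed widely between the 2 cell lines of the study. The difference between lines is therefore given for these genes as a description with no test, and only the differences between sorted cell fractions were tested. KRAB zinc finger proteins bind DNA through arrays of C2H2 zinc fingers. Their KRAB domain recruits TRIM28, a scaffold that brings the histone methyltransferase SETDB1, heterochromatin proteins and deacetylases to the bound site, and the outcome there is usually repression. Many of these proteins bind transposable elements, and their genes lie in clusters that grew by tandem duplication.

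The study used 2 head and neck squamous carcinoma lines carrying a hypoxia fate-mapping reporter, in which cells that have met low oxygen switch for good from the red protein DsRed to green GFP. SCC154-hfm is HPV-positive and FADU-hfm is HPV-negative, and both were grown as spheroids, sorted by colour and then cultured in normal oxygen before RNA was taken. The groups were SCC154 post-hypoxic cells (GFP-positive, 4 libraries, replicates 2 to 5), SCC154 non-hypoxic cells (DsRed-positive, 5 libraries), FADU post-hypoxic cells (GFP-positive, 5 libraries) and FADU non-hypoxic cells (DsRed-positive, 4 libraries, replicates 1 to 4). Post-hypoxic thus names a past state, since no group was hypoxic at harvest. There is 1 line for each HPV status, so that line and HPV status cannot be told apart, and the labels do not say whether replicates came from separate sorts or cultures. P-values below measure the spread between these libraries, which may be technical.

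The libraries were 3′ tag libraries, in which a transcript gives 1 tag near its poly(A) end whatever its length. The shallowest library held 1654719 counts and the deepest 2503573. Levels are in CPM, counts scaled to a common TMM-adjusted library size, and 1 CPM was worth between 1.68 and 2.44 counts. A list of 7 squamous epithelial markers summed to 992 to 1134 CPM in SCC154 post-hypoxic, 981 to 1135 CPM in SCC154 non-hypoxic, 946 to 1080 CPM in FADU post-hypoxic and 827 to 1025 CPM in FADU non-hypoxic libraries. Single markers differed between the lines in both directions. Means in SCC154 and FADU were 25.5 and 220 CPM for KRT5, 4.15 and 29.5 for KRT14, 42.4 and 81.4 for TP63 and 167 and 253 for EPCAM. They were 429 and 83.0 CPM for KRT6A, 199 and 86.8 for CDH1 and 195 and 214 for KRT17. CDKN2A, which encodes p16 and is high in HPV-positive carcinoma, was at 187 to 246 CPM in SCC154 libraries and 61.6 to 79.6 CPM in FADU libraries. Summed fibroblast markers (6 genes, COL3A1 and LUM at 0), endothelial markers (4 genes, KDR at 0) and immune markers (5 genes, CD3E at 0) reached at most 5.80, 5.18 and 2.98 CPM in any library.

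By the GENCODE v29 annotation of hg38 the 10 genes span chr19:36850361-37614097, a stretch of 763.7 kb, with 7 genes on the plus strand and 3 (ZNF585A, ZNF585B and ZNF569) on the minus strand. ZNF569 covers chr19:37411155-37469275 and starts head to head with ZNF570, chr19:37467585-37488652, the 2 gene bodies sharing 1691 bases. ZNF585B and ZNF383 also start head to head and share 228 bases. RefSeq (GRCh38.p14) holds 17 promoter windows for the 10 genes, each running from 250 bases before to 50 bases after a transcript start. The windows of ZNF569 and the nearest start of ZNF570 share 173 bases, so that both starts are read outward from nearly the same DNA. Further windows of ZNF570, at chr19:37469106-37469405 and chr19:37469321-37469620, do not overlap the ZNF569 window. Of 4 genes the windows are printed, because they stand for the patterns met below. ZNF569 and ZNF383 were far higher in SCC154, ZNF527 was read almost only in FADU, and ZNF420 had overlapping levels in the 2 lines. Capitals mark every CG dinucleotide, the site of DNA methylation in human cells.
ZNF569, chr19:37467395-37467694, minus strand: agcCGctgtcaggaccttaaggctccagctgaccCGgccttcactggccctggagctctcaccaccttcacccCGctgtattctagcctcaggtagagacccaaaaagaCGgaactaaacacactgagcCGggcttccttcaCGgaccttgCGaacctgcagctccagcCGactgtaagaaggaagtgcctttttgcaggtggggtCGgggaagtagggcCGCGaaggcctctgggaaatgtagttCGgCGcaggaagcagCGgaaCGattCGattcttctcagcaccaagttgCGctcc
ZNF383, chr19:37217964-37218263, plus strand: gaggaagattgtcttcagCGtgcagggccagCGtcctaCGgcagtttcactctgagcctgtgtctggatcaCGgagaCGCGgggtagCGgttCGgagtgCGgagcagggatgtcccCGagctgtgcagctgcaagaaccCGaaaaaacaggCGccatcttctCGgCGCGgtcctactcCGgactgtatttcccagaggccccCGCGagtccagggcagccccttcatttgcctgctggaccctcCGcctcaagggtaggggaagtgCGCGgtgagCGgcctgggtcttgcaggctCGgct
ZNF527, chr19:37370849-37371148, plus strand: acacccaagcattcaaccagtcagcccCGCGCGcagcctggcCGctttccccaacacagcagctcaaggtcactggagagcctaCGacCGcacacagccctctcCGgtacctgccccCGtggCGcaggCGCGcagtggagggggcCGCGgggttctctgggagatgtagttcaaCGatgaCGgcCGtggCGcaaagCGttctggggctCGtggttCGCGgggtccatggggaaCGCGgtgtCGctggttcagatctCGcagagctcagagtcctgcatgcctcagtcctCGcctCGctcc
ZNF420, chr19:37078183-37078482, plus strand: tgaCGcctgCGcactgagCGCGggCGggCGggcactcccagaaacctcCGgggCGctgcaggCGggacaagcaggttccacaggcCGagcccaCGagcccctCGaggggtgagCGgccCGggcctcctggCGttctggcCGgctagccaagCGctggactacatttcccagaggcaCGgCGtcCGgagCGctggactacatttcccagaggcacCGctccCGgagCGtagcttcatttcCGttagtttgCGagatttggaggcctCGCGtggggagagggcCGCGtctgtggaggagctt
The ZNF569 window holds 17 CG dinucleotides, the ZNF383 window 23, the ZNF527 window 27 and the ZNF420 window 30. Over the 17 windows of the 10 genes the number ran from 9 to 30, and 13 windows held more than 14, the median of all 35116 RefSeq windows of this length (quartiles 4 and 28). At least 17 CG dinucleotides occur in 46.0% of all windows and at least 30 in 22.4%. The core of the element bound by hypoxia-inducible factors was also counted on both strands, as ACGTG and as GCGTG, which cannot start at the same base. ACGTG occurs in 1 of the 17 windows, against 21.4% of all windows, and GCGTG in 7 of 17, against 36.5%. The methylation of these windows was not measured in the data used here.

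All the values of ZNF569, a KRAB zinc finger gene reported to repress MAPK-driven reporters, separated the lines. Its level was 211, 176, 234 and 228 CPM in SCC154 post-hypoxic libraries and 228, 283, 229, 220.3 and 260 CPM in SCC154 non-hypoxic libraries. In FADU it was 5.99, 5.06, 3.63, 4.95 and 4.40 CPM in post-hypoxic and 3.80, 6.10, 3.49 and 4.31 CPM in non-hypoxic libraries. Every SCC154 library lay above every FADU library by a wide gap, and within a line the 2 sorted fractions overlapped. The group means were 212 ± 26.0 CPM in SCC154 post-hypoxic, 244 ± 26.5 CPM in SCC154 non-hypoxic, 4.81 ± 0.872 CPM in FADU post-hypoxic and 4.43 ± 1.16 CPM in FADU non-hypoxic libraries (SD, n = 4, 5, 5 and 4). SCC154 non-hypoxic cells were thus highest, followed by SCC154 post-hypoxic, FADU post-hypoxic and FADU non-hypoxic cells. Of neighbours in this order, only SCC154 post-hypoxic and FADU post-hypoxic cells lay apart beyond their spread. Over all libraries 4463 counts of ZNF569 in SCC154 stood against 89 in FADU, a ratio of 49.8 after scaling for library size (exact 95% interval 40.3 to 62.1, counting error only). The log2 difference, SCC154 minus FADU, was 5.46 (SE 0.16) between post-hypoxic and 5.75 (SE 0.17) between non-hypoxic libraries.

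Along the cluster, 6 of the 10 genes had all 9 SCC154 libraries above all 9 FADU libraries, which was so for 22.1% of the 12291 genes tested. They were ZNF345, ZNF585A, ZNF383, ZNF569, ZNF570 and ZNF540. ZNF527 alone lay the other way round, with all 9 SCC154 libraries below all 9 FADU libraries, as 21.3% of tested genes did. ZNF568, ZNF420 and ZNF585B overlapped between the lines. Since ZNF569 led to the choice of its neighbours, these counts describe the stretch and support nothing further. In bulk RNA, fewer cells reading a gene and less RNA per cell cannot be told apart.

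**Figure D1:**
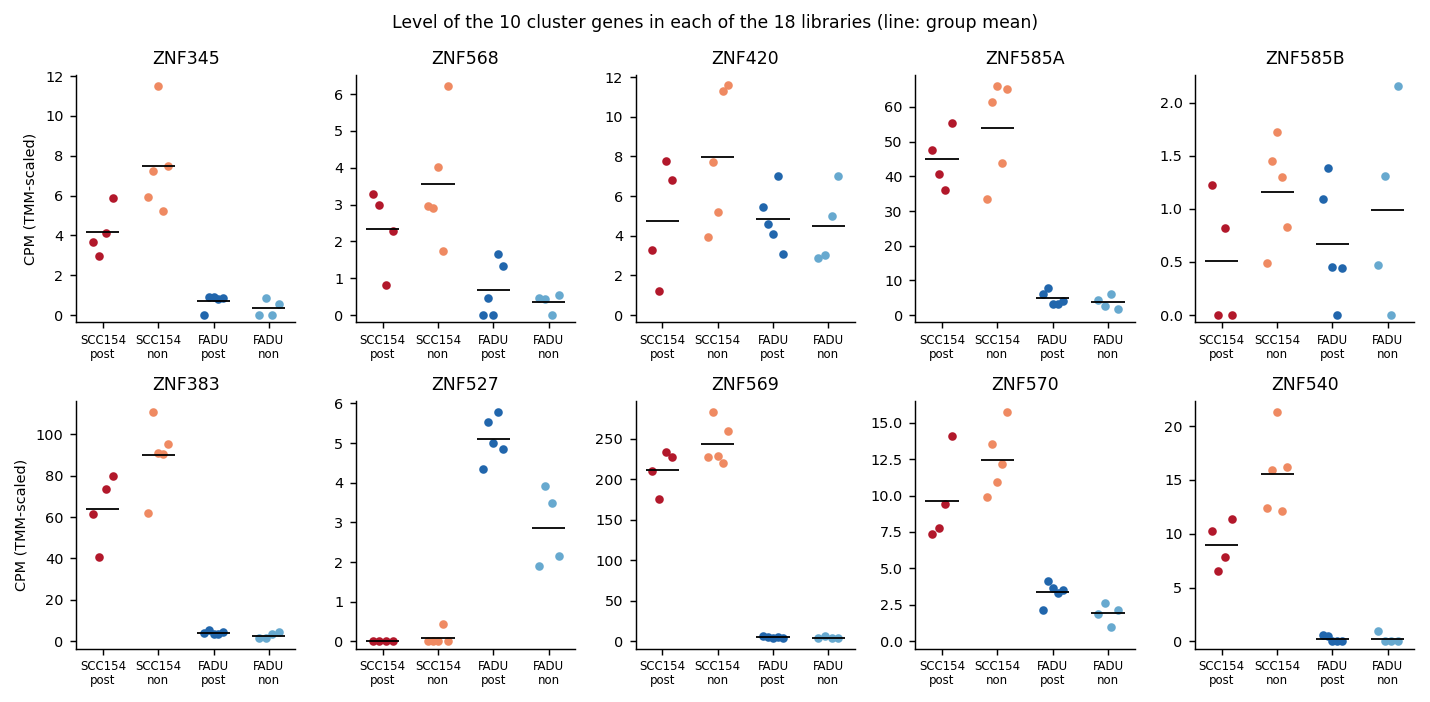
Level of each of the 10 genes in every library, in CPM (vertical axis, own linear scale per gene), by group; points are libraries and bars group means. ZNF569 lies at 176 to 283 CPM in SCC154 and 3.49 to 6.10 CPM in FADU libraries, and ZNF527 at 0 to 0.434 CPM in SCC154 and 1.90 to 5.78 CPM in FADU libraries.

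ZNF383, also reported to dampen MAPK-driven reporters, had 61.4, 40.6, 73.4 and 79.9 CPM in SCC154 post-hypoxic and 62.2, 111, 90.9, 90.2 and 95.4 CPM in SCC154 non-hypoxic libraries. FADU post-hypoxic libraries had 3.81, 5.52, 3.63, 3.30 and 4.40 CPM and FADU non-hypoxic libraries 1.43, 1.74, 3.49 and 4.31 CPM. The lines were again fully apart, and 1524 counts in SCC154 against 67 in FADU gave a ratio of 22.6 (95% interval 17.7 to 29.3). ZNF585A, whose closest copy is ZNF585B next to it, had a mean of 49.9 ± 12.5 CPM in SCC154 and 4.31 ± 1.95 CPM in FADU (SD, n = 9 each), a ratio of 11.6 (95% interval 9.28 to 14.8). ZNF570, which faces ZNF569, had 11.2 ± 2.89 CPM in SCC154 and 2.72 ± 1.01 CPM in FADU (SD, n = 9 each). Its ratio of counts was 4.08, smaller than that of ZNF569. ZNF570 has further starts apart from the one beside ZNF569, and 3′ tags do not show which start was used.

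ZNF540, at the right end, had 10.2, 6.56, 7.79 and 11.3 CPM in SCC154 post-hypoxic and 12.3, 15.9, 21.3, 12.1 and 16.2 CPM in SCC154 non-hypoxic libraries. In FADU it had 0.545 and 0.460 CPM in post-hypoxic replicates 1 and 2, 0.951 CPM in non-hypoxic replicate 1 and 0 in the other 6 libraries. The gene was thus at the edge of detection in FADU, with 242 counts in SCC154 against 4 in FADU and a ratio of 60.0 (95% interval 23.1 to 222). Without FADU non-hypoxic replicate 1, which held 2 of the 4 counts, its log2 line difference was 6.65 in place of 5.46. The last exon of ZNF540 overlaps the last exon of ZFP30 on the other strand, with 117 of the 500 bases before a 3′ end of ZNF540 shared. Whether counting used strand is not given in the sources used here, so ZNF540 is uncertain where ZFP30 is abundant. ZNF345, at the left end, had 6.001 ± 2.57 CPM in SCC154 and 0.549 ± 0.427 CPM in FADU (SD, n = 9 each), on 114 and 11 counts.

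ZNF527 ran against the cluster genes on either side of it. No SCC154 post-hypoxic library and 1 of 5 SCC154 non-hypoxic libraries (replicate 4, 1 count, 0.434 CPM) held it. FADU post-hypoxic libraries had 4.36, 5.52, 4.99, 5.78 and 4.84 CPM and FADU non-hypoxic libraries 1.90, 3.92, 3.49 and 2.16 CPM. Every FADU library held the gene, at 4 to 14 counts. Among post-hypoxic libraries, 0 counts in SCC154 allow up to 3 counts over the group, or 0.342 CPM, so that ZNF527 was at least 14.99-fold lower in SCC154 than in FADU, taking the 56 FADU counts as they stand. With the counting error of both groups the exact 95% lower limit was 11.8. Among non-hypoxic libraries, 1 count in SCC154 stood against 24 in FADU, where the level was 30.7 times as high (95% interval 5.00 to 1261). ZNF527 lies between ZNF383 and ZNF569, which were both higher in SCC154.

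The remaining 3 genes gave little. ZNF420, also named APAK, is described as a repressor that holds back p53 target genes together with TRIM28. It had 4.77 ± 3.07 CPM in SCC154 post-hypoxic, 7.95 ± 3.47 CPM in SCC154 non-hypoxic, 4.85 ± 1.49 CPM in FADU post-hypoxic and 4.48 ± 1.95 CPM in FADU non-hypoxic libraries (SD, n = 4, 5, 5 and 4). These groups overlapped throughout. ZNF568, whose mouse counterpart silences a placental transcript of Igf2, had 58 counts in SCC154 and 11 in FADU, too few to pass the filter on low counts. ZNF585B had 17 counts in SCC154 and 15 in FADU and did not pass the filter either. Of the 50-base windows in the last 500 bases of their transcripts, ZNF585A shares 33.1% and ZNF585B 35.1% with transcripts of other genes. For ZNF585A, 146 of its 1804 windows are shared with ZNF585B and 451 with AC012309.1, an overlapping locus on the same strand that was not analysed here. For ZNF585B, 290 of 1258 windows are shared with ZNF585A and 198 with AC012309.1. Reads may be split among these genes, and both ZNF585A and ZNF585B are uncertain.

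The picture along the chromosome was of SCC154-high genes broken by a few FADU-high ones. Among 20 further zinc finger genes of the region, 10 had all SCC154 libraries above all FADU libraries, 5 had all below and 5 overlapped. Over all tested genes 22.1% lay above and 21.3% below. The 5 below were ZNF146, ZFP14, ZFP82, ZNF850 and ZNF875, of which all but ZFP82 are named here after their values were seen. Of the 4 with the largest line differences among neighbours at a mean of at least 2 CPM, ZFP82 had 1.21 ± 0.658 CPM in SCC154 and 56.5 ± 5.60 CPM in FADU (SD, n = 9 each). ZNF461 averaged 60.4 CPM in SCC154 and 2.46 CPM in FADU. ZNF571 averaged 23.5 CPM in SCC154 and 0.790 CPM in FADU, and ZFP30 118.8 CPM in SCC154 and 5.03 CPM in FADU. ZNF875 had no count in any SCC154 library and was at 1.08 to 5.28 CPM in FADU libraries.

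Genes that are no zinc finger genes were counted apart. The 18 other tested genes within 1000 kb of the cluster exclude non-coding transcripts named after zinc finger genes. Of these 18, 5 had all SCC154 libraries above FADU, a share near the 22.1% of all tested genes, and 1 below, against 21.3%. The median log2 line difference of these 18 genes was 0.12. Over the 8 cluster genes tested, which include ZNF569, the gene the choice started from, the median was 3.41, over the 14 tested neighbours 3.00 and over all tested genes -0.01. The 3 tested non-coding transcripts named after zinc finger genes had log2 line differences of 6.28 (ZNF567-DT), 3.23 (ZNF529-AS1) and 1.82 (ZNF793-AS1, where the lines overlapped). ZNF567-DT, chr19:36685440-36687449, was also the nearest tested gene on the left that is no zinc finger gene, 162.9 kb from the cluster. It had 158 ± 27.8 CPM in SCC154 post-hypoxic, 252 ± 46.5 CPM in SCC154 non-hypoxic, 2.69 ± 1.64 CPM in FADU post-hypoxic and 2.196 ± 1.676 CPM in FADU non-hypoxic libraries (SD, n = 4, 5, 5 and 4). Its SCC154 post-hypoxic libraries, at 129 to 192 CPM, all lay below the non-hypoxic ones, at 196 to 317 CPM, a log2 difference of -0.66 (SE 0.17, edgeR adjusted p = 0.0644). The nearest not named after a zinc finger gene was LINC00665, a long non-coding RNA 518.6 kb from the cluster. It had 29.1 CPM in SCC154 post-hypoxic, 34.6 CPM in SCC154 non-hypoxic, 87.0 CPM in FADU post-hypoxic and 83.9 CPM in FADU non-hypoxic libraries. On the right the nearest was SIPA1L3, a Rap GTPase regulator at 293.1 kb, with 41.9 and 57.9 CPM in SCC154 post-hypoxic and non-hypoxic and 8.01 and 6.43 CPM in FADU post-hypoxic and non-hypoxic libraries. Of 140 other tested zinc finger genes of chromosome 19, 53 had all SCC154 libraries above FADU and 43 below, against 22.1% and 21.3% of all tested genes. Lines lying apart in both directions was thus not particular to this cluster.

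**Figure D2:**
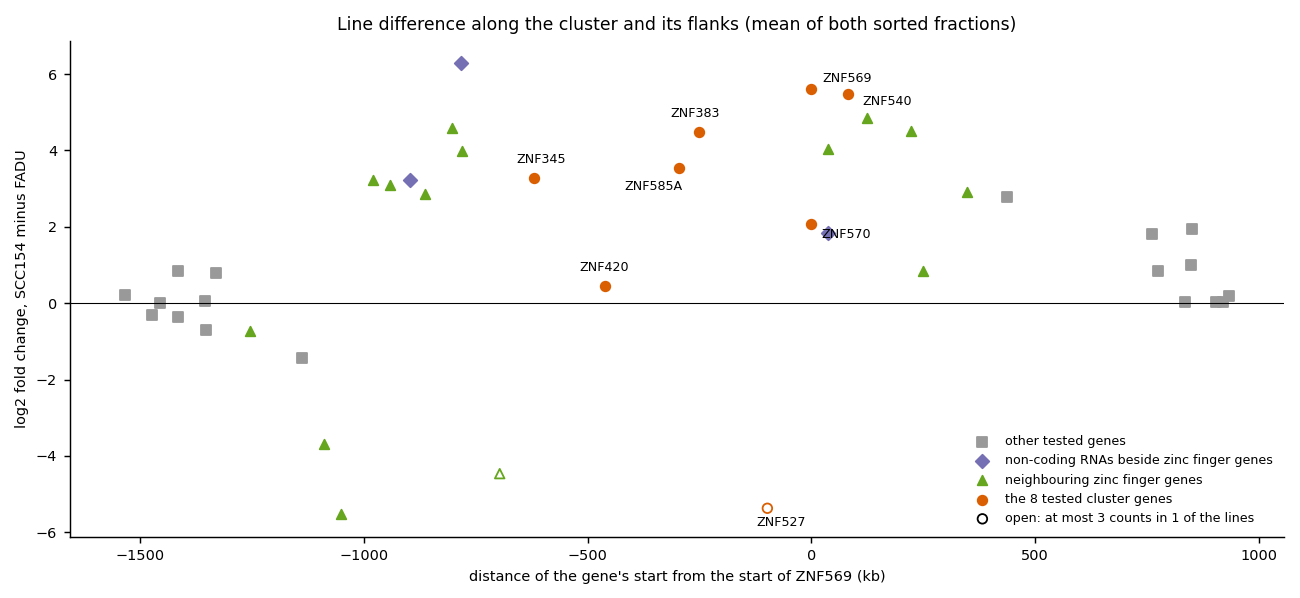
Log2 fold change, SCC154 minus FADU (vertical axis, mean of the post-hypoxic and non-hypoxic comparisons) of tested genes against the distance of their start from the start of ZNF569 in kb (horizontal axis). ZNF569 at 5.61 and ZNF540 at 5.46 lie highest among the cluster genes. The order of these is uncertain, as ZNF540 rests on 4 FADU counts and ran from 5.27 to 6.65 when single libraries were left out. ZNF527 and ZNF850 are open points because SCC154 held at most 3 counts of each, and their fitted values depend on the prior count.

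The post-hypoxic and non-hypoxic fractions asked whether past hypoxia left a trace in these genes after culture in normal oxygen. In SCC154 no cluster gene passed an adjusted p of 0.05 by edgeR's quasi-likelihood test in the main fit, which held no replicate term. There 93 of 12291 tested genes, or 0.757%, did. All 7 cluster genes for which a fold could be given had a lower value in post-hypoxic cells, with a median log2 difference of -0.485. Over all tested genes 49.9% were lower and the median was 0.001. The cluster genes were read in the same libraries and are not independent of each other. ZNF527 was left out because SCC154 held 1 count of it.

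ZNF540 had its 4 SCC154 post-hypoxic libraries at 6.56 to 11.3 CPM, all below its 5 non-hypoxic libraries at 12.1 to 21.3 CPM, as 2.99% of tested genes did. No cluster gene had all its post-hypoxic libraries above the non-hypoxic ones, against 2.56% of tested genes. The log2 difference of ZNF540 was -0.77 (SE 0.27), with an edgeR adjusted p of 0.169. Its 3′ end overlaps that of ZFP30, which was also lower in SCC154 post-hypoxic cells (-0.56). Whether reads of ZFP30 enter the ZNF540 value was not tested. ZNF383 averaged 63.8 ± 17.3 CPM in post-hypoxic and 89.9 ± 17.5 CPM in non-hypoxic SCC154 libraries, a log2 difference of -0.48 (SE 0.18, edgeR adjusted p = 0.183). Its highest post-hypoxic library, at 79.9 CPM, lay above its lowest non-hypoxic library, at 62.2 CPM. ZNF345 had 3.69, 2.98, 4.10 and 5.90 CPM in post-hypoxic against 5.92, 7.25, 11.5, 5.20 and 7.46 CPM in non-hypoxic libraries, a log2 difference of -0.80 (SE 0.33, edgeR adjusted p = 0.239). These 3 genes were the cluster genes with an unadjusted edgeR p under 0.05, and each failed the correction. Of the 12016 tested genes with a fold in SCC154, 1930 had an unadjusted edgeR p under 0.05.

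ZNF569 itself had a log2 difference of -0.20 (SE 0.11, edgeR adjusted p = 0.381) in SCC154, small beside the gap between lines. ZNF420 had -0.71 (SE 0.39), ZNF570 -0.37 (SE 0.23) and ZNF585A -0.26 (SE 0.21), with edgeR adjusted p of 0.386, 0.455 and 0.567. Fitted without the filter on low counts, ZNF568 had -0.63 (SE 0.48) and ZNF585B -0.94 (SE 0.78), both with an edgeR adjusted p of 0.681. SCC154 post-hypoxic replicate 3 had the lowest level of the 9 SCC154 libraries for 5 of the 10 genes: ZNF345, ZNF420, ZNF383, ZNF569 and ZNF540. It was also the shallowest library, with 1654719 counts, and its share of lowest values over all tested genes is not given here. Without that library the 7 differences ran from -0.69 to -0.12, all still lower in post-hypoxic cells, and none passed. Same-numbered libraries of a line were also treated as a replicate block. ZNF383 (-0.60), ZNF540 (-0.81) and ZNF420 (-0.89) then passed in SCC154, with edgeR adjusted p of 0.00729, 0.0354 and 0.0485. Calls rose over the whole table in that fit, where 1034 genes passed in SCC154, against 93 in the main fit. The check of replicate numbers did not take the SCC154 libraries as paired, because it asked for r above 0.1 in every pair. Same-numbered pairs had r of 0.0292, 0.292, 0.398 and 0.144 (replicates 2 to 5), and differently numbered pairs ran from -0.404 to 0.201. The calls of these 3 genes in SCC154 thus depend on how replicate numbers are treated.

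In FADU the values ran the other way without passing. No cluster gene and no gene at all passed edgeR's adjusted p of 0.05 in the main fit, so the background there was 0.0%. That fit held no pairing term, although same-numbered FADU libraries deviated together. Under other settings up to 10 genes passed, no cluster gene among them. Of the 12084 genes with a fold, 295 had an unadjusted edgeR p under 0.05. DESeq2 called 3 genes, no cluster gene among them. All 7 cluster genes with a fold had a higher value in post-hypoxic cells, with a median log2 difference of 0.616, where 48.9% of all tested genes were higher and their median was -0.005. ZNF527 had all 5 post-hypoxic FADU libraries, at 4.36 to 5.78 CPM, above its 4 non-hypoxic libraries, at 1.90 to 3.92 CPM, as 0.561% of tested genes did. No cluster gene had all post-hypoxic FADU libraries below the non-hypoxic ones, against 0.504% of tested genes. The log2 difference of ZNF527 was 0.81 (SE 0.33, unadjusted p = 0.0240 and adjusted p = 1 by edgeR). ZNF570 had 3.36 ± 0.726 CPM in post-hypoxic and 1.92 ± 0.680 CPM in non-hypoxic FADU libraries (SD, n = 5 and 4), a log2 difference of 0.79 (SE 0.37).

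The rest of the FADU values were small beside their error or rested on few counts. ZNF383 had a log2 difference of 0.62 (SE 0.41), ZNF585A 0.39 (SE 0.41), ZNF420 0.14 (SE 0.43) and ZNF569 0.09 (SE 0.26). ZNF345 had 0.91 (SE 0.81) on 8 counts in post-hypoxic and 3 counts in non-hypoxic libraries. It ran from 0.54 to 1.80 when single FADU libraries were left out, the ends being without non-hypoxic replicates 1 and 2. ZNF585A ran from 0.15 without post-hypoxic replicate 2 to 0.73 without non-hypoxic replicate 3. Each of these 5 genes had an edgeR adjusted p of 1. Without the filter ZNF568 had 0.90 (SE 0.91) and ZNF585B -0.55 (SE 0.79). ZNF569 had -0.0030 without FADU non-hypoxic replicate 3. ZNF420 had -0.0435 without FADU post-hypoxic replicate 4, and -0.0159 and -0.0082 without FADU non-hypoxic replicates 1 and 2.

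**Figure D3:**
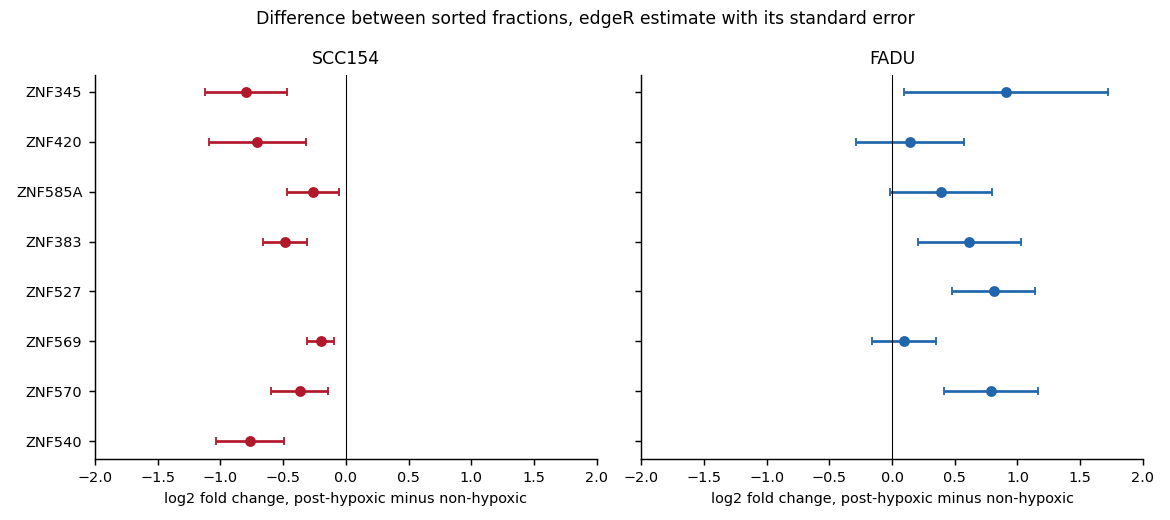
Log2 fold change, post-hypoxic minus non-hypoxic cells (horizontal axis), of the tested cluster genes in SCC154 (left) and FADU (right); points are edgeR estimates and bars their standard errors. SCC154 estimates run from -0.80 (ZNF345) to -0.20 (ZNF569) and FADU estimates from 0.09 (ZNF569) to 0.91 (ZNF345); ZNF527 in SCC154 and ZNF540 in FADU are not drawn because both fractions held at most 3 counts.

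Whether the response itself differed between lines was tested as an interaction, the SCC154 difference minus the FADU difference. No cluster gene passed edgeR's adjusted p of 0.05, and 2 of 12291 genes (0.0163%) did. All 6 cluster genes with a value in both lines were negative, with a median of -0.975 on the log2 scale, where 50.7% of all genes were negative and their median was -0.005. These 6 signs follow from the lower SCC154 and higher FADU values given above and are no separate result. ZNF570 had -1.16 (SE 0.44, unadjusted p = 0.0141, adjusted p = 0.401 by edgeR) and ZNF383 -1.10 (SE 0.45, adjusted p = 0.438 by edgeR). ZNF345 had -1.71 (SE 0.89), ZNF420 -0.85 (SE 0.58), ZNF585A -0.66 (SE 0.46) and ZNF569 -0.29 (SE 0.28), with edgeR adjusted p from 0.539 to 0.800.

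The zinc finger neighbours had values of the same kind in SCC154. All 13 neighbours with a fold were lower in SCC154 post-hypoxic cells, with a median log2 difference of -0.466, and none passed. ZFP30 had 93.9 ± 19.6 CPM in post-hypoxic and 138.8 ± 15.7 CPM in non-hypoxic SCC154 libraries (SD, n = 4 and 5), a log2 difference of -0.56 (SE 0.15, edgeR adjusted p = 0.0658). Its post-hypoxic libraries, at 75.03 to 118 CPM, all lay below its non-hypoxic libraries, at 121 to 162 CPM. ZNF461 had 45.8 ± 13.4 CPM in post-hypoxic and 72.1 ± 9.19 CPM in non-hypoxic SCC154 libraries, a log2 difference of -0.64 (SE 0.19, edgeR adjusted p = 0.103). In FADU 11 of 14 neighbours were higher in post-hypoxic cells, with a median of 0.18.

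Other genes of the region and of chromosome 19 were counted in the same way. Of the 18 other tested genes within 1000 kb, 8 were higher and 10 lower in SCC154 post-hypoxic cells (median -0.054), and 16 were higher and 2 lower in FADU (median 0.12). Of the other chromosome 19 zinc finger genes with a fold, 43 were higher and 66 lower in SCC154 post-hypoxic cells (median -0.102), of which 2 passed, both lower. In FADU 73 were higher and 61 lower (median 0.014). No difference between these lists was tested.

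**Figure D4:**
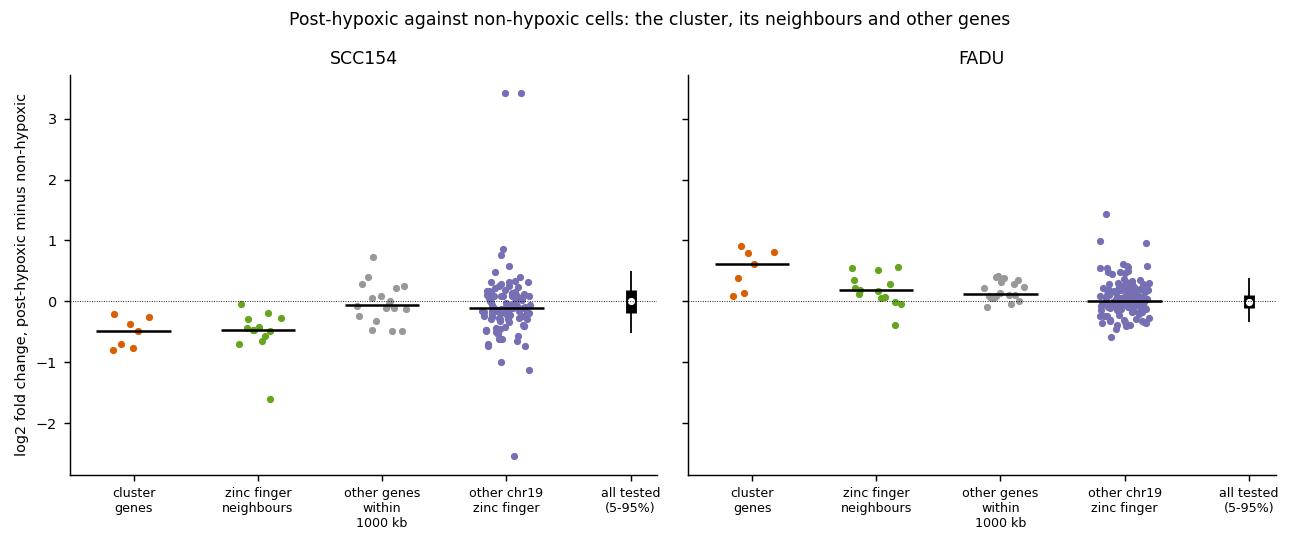
Log2 fold change, post-hypoxic minus non-hypoxic cells (vertical axis), in SCC154 (left) and FADU (right) for the cluster genes, their zinc finger neighbours, other genes within 1000 kb and other zinc finger genes of chromosome 19; points are genes, bars list medians, and the box at the right of each panel spans the 25th to the 75th percentile of all tested genes, with whiskers from the 5th to the 95th percentile. Cluster medians were -0.485 in SCC154 and 0.616 in FADU, against 0.001 and -0.005 over all tested genes.

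For the repression machinery that KRAB proteins use, no difference between post-hypoxic and non-hypoxic cells passed. TRIM28, the scaffold, had 22.9 ± 4.54 CPM in SCC154 post-hypoxic, 25.2 ± 2.73 CPM in SCC154 non-hypoxic, 15.8 ± 6.82 CPM in FADU post-hypoxic and 15.8 ± 6.32 CPM in FADU non-hypoxic libraries (SD, n = 4, 5, 5 and 4). SETDB1, the methyltransferase, had 36.5 ± 6.86 CPM in SCC154 post-hypoxic, 29.4 ± 5.38 CPM in SCC154 non-hypoxic, 34.8 ± 3.08 CPM in FADU post-hypoxic and 33.7 ± 1.02 CPM in FADU non-hypoxic libraries. The libraries of the lines overlapped for both genes. TRIM28 had a log2 difference of -0.13 (SE 0.26, edgeR adjusted p = 0.853) between post-hypoxic and non-hypoxic SCC154 cells, and SETDB1 0.32 (SE 0.15, edgeR adjusted p = 0.302). Of 20 tested genes of this machinery none passed in either line or in the interaction. Between the lines, 3 of the 20 had all SCC154 libraries above and 8 all below the FADU libraries, against 22.1% and 21.3% of all tested genes. One of the 8, named after its values were seen, was ZNF274, a zinc finger protein that brings SETDB1 to its sites. It had 2 counts in 1 of 9 SCC154 libraries (0 to 0.966 CPM), against 270 counts in FADU, where all 9 libraries held it at 9.49 to 17.1 CPM. In SCC154, 4 were higher and 15 lower in post-hypoxic cells (median -0.11), and in FADU 10 were higher and 10 lower (median 0.002).

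Across the whole table, 12275 genes were ranked by the likeness of their log2 CPM to that of ZNF569 over the 18 libraries, which mainly form 2 clusters by line. The correlations below therefore describe the line split and are given without p. By Pearson's r, with a prior count of 2, the 5 most like ZNF569 were TMX3, a disulfide isomerase of the endoplasmic reticulum (Pearson r = 0.998), UBQLN2, a ubiquilin (0.997), GSTM3, a glutathione transferase (0.997), CD24, a surface glycoprotein (0.997), and MEX3C, an RNA-binding ubiquitin ligase (0.997). None lies on chromosome 19, and their means were 44.2 to 136 CPM in SCC154, against 0 to 0.0606 CPM in FADU. The order depends on the measure. By Spearman's rho, 0.813 to 0.883, the same genes ranked 38 (TMX3) to 649 (UBQLN2), and with a prior count of 0.5 GSTM3 ranked 20 and CD24 11 by Pearson's r. Within the cluster, ZNF383 ranked 271 with r = 0.982, ZNF540 414 with 0.977 and ZNF585A 647 with 0.968. ZNF345 had r = 0.933, ZNF570 0.932, ZNF420 0.262 and ZNF527 -0.956.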

How the data were processed

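RNA was measured by 3′ tag sequencing (QuantSeq, per the labels' protocols) in 18 libraries of 2 cell lines and 2 sorted fractions. The deposited table holds raw counts per gene symbol made by the authors. Per the submitters' processing notes the tools were featureCounts 1.5.1, HISAT2 2.2.1 (build hg38), UMI-tools 1.1.5, DESeq2, Trimmomatic 0.39 and FastQC 0.11.9. How strand and multi-mapping reads were handled, and the annotation, is not given in the sources used here.

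All 18 libraries entered 1 edgeR 4.0.16 quasi-likelihood fit (R 4.3.3) with 4 group means, TMM factors and filterByExpr, which left 12291 genes, 8 of the 10 cluster genes among them. P-values were Benjamini-Hochberg adjusted over all tested genes, with a threshold of 0.05. The standard error is the log2 fold change divided by the square root of F. Folds were left out where both groups held at most 3 counts. Intervals of count ratios are exact at 95% and cover counting error only. Positions come from GENCODE v29 (40492 of 41120 symbols matched) and promoters from RefSeq, GRCh38.p14. No pair of replicates was a duplicate (chi-square per degree of freedom 1.84 to 11.7 over 32 pairs). The fit was tested on simulated data.

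Besides the cluster genes, the rule named neighbours called in a fraction comparison or with the 4 largest line differences (mean of at least 2 CPM), TRIM28, SETDB1, the nearest flanking genes that are no zinc finger genes (LINC00665 was added), and the 5 genes most like ZNF569 (at least 2 CPM, prior count 2, Y-linked genes and XIST left out). The cluster genes and all lists were chosen with earlier results of these data known. Same-numbered FADU libraries deviated together (r = 0.178 to 0.447 over 4 pairs) and passed the check for pairing. SCC154 libraries (r = 0.0292 to 0.398) did not, as 1 pair fell under 0.1. The main fit held no pairing term for either line, so its FADU values are unpaired too. With the replicate block, the 6 cluster genes with a value in FADU had log2 differences from 0.14 to 0.80, and none passed. Alternatives were RLE and upper-quartile factors, no filter or a mean of at least 5 CPM, DESeq2 1.42.0, limma voom 3.58.1, each line alone, the replicate block, libraries left out, and ZNF585A and ZNF585B added up.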

Additional observations from a re-analysis of the deposited data

Results flagged for a closer look

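Each value below stood far from the other libraries of its group, by a gap larger than the 95% limit of Dixon's test. Of 87 groups of 4 or 5 libraries examined 7 did so. Chance alone flags about 1 in 20 where values are normally distributed. A group with counts in only 1 library is always flagged, so that rate does not apply to it. ZNF345 was at 0 CPM in FADU post-hypoxic replicate 1, where the other 4 libraries had 0.825 to 0.920 CPM. ZNF571 was at 11.9 CPM in SCC154 post-hypoxic replicate 3, where the other 3 had 21.7 to 22.7 CPM. SIPA1L3 was at 13.6 CPM in FADU post-hypoxic replicate 1, where the other 4 had 5.72 to 7.43 CPM. The remaining 4 were libraries with a count where the others of the group had 0. ZNF527 was at 0.434 CPM in SCC154 non-hypoxic replicate 4. ZNF540 was at 0.951 CPM in FADU non-hypoxic replicate 1. GSTM3 was at 0.545 CPM in FADU post-hypoxic replicate 1 and CD24 at 0.436 CPM in FADU non-hypoxic replicate 2. These 4, and ZNF345, rest on 0 to 2 counts.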

How the results depend on the processing

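No cluster gene passed in SCC154, FADU or the interaction under any setting but 1. With the replicate block within each line, 3 cluster genes passed in SCC154 (the blocked values stand with the SCC154 results), and the block changed no other cluster call. In that fit 7 FADU genes passed, no cluster gene among them. The number of all genes passing in SCC154 was 93, and it was 291 without the filter, 207 with DESeq2, 22 with SCC154 alone, 1034 with the block, 51 on the paired libraries with no block, and 20 to 190 when single libraries were left out. In FADU it was 0, against 10 without the filter and 3 with DESeq2, and in the interaction 2, against 51, 21 and, with the block, 214. ZFP30 passed in SCC154 without the filter (adjusted p = 0.0245), with DESeq2 (0.0277), limma voom (0.0295), the block (0.00147) and without post-hypoxic replicate 5 (0.0328). ZNF461 passed without the filter (0.0316), with the block (0.0120) and without that library (0.0463), and SIPA1L3 with the block (0.0405). ZNF567-DT passed in SCC154 without the filter (0.00197), with DESeq2 (0.0140), limma voom (0.0329), the block (0.00156) and without post-hypoxic replicate 5 (0.0418).

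Signs turned only for values near 0 that did not pass. Leaving out single libraries, the FADU log2 difference ran from -0.0030 to 0.30 for ZNF569, -0.0435 to 0.424 for ZNF420, -0.0926 to 0.0113 for ZFP82, -0.248 to 0.206 for TRIM28 (below 0 without post-hypoxic replicate 3 or 4 or non-hypoxic replicate 1), -0.0023 to 0.0828 for SETDB1 -0.0219 to 0.0890 for LINC00665 and -0.126 to 0.696 for ZNF567-DT (below 0 without post-hypoxic replicate 5 or non-hypoxic replicate 4, and -0.0632 with the block and -0.1257 on the paired libraries with no block). The TRIM28 interaction ran from -0.331 to 0.127, above 0 without FADU post-hypoxic replicate 3 or non-hypoxic replicate 1. ZFP82 turned without FADU post-hypoxic replicate 1 or non-hypoxic replicate 3, LINC00665 without post-hypoxic replicate 1 and SETDB1 without post-hypoxic replicate 4. The SETDB1 line difference was 0.0442, against -0.0568, without SCC154 non-hypoxic replicate 1 and post-hypoxic replicate 3 together. The line difference of ZNF569, 5.61, stayed between 5.56 and 5.71. That of ZNF527, which rests on 1 SCC154 count, was -3.94 with limma voom and -6.06 without SCC154 non-hypoxic replicate 4, and that of ZNF345 was 3.74 without FADU non-hypoxic replicate 2. Line differences under the block, and from each line alone, were not run. In FADU libraries cluster genes had at most 17 counts.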
